A study of Mus musculus with 38 samples.

Results

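Il3, Lif, Lta, Tnf, Csf2, Il1a, Il21, Il4, Il10 and Il13 encode cytokines that CD4 T cells can make after activation. These 10 genes were taken by symbol from a table of 24028 genes, and all 10 had enough counts to enter the tests, which ran over 13650 genes. They, and the gene lists set beside them, were chosen with earlier results of these data known. Counts of called genes beside the share of all genes therefore describe these sets and do not test them. The table holds read counts of polyA RNA for 38 libraries of mouse naive CD4 T cells and of the same kind of cells after stimulation. Counts fell at or below 3 in a whole group, and were therefore too low to read, for Il3 in all 5 naive groups, for Il13 in 3 naive groups and for Csf2 in 1 naive group.

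Each library came from the lymph nodes and spleen of 1 mouse, from which untouched naive CD4 T cells had been enriched with a kit. CD28-/- mice lack the costimulatory receptor CD28 throughout the body. In mice labelled T1792delta/delta (T1792del), Cre driven by Cd4 deletes a floxed miR-17∼92 cluster in T cells. In mice labelled T1792tg/tg (T1792tg), the same Cre removes a stop cassette before a CAG-driven miR-17∼92 transgene in Rosa26. Rescue mice combine CD28-/- with that Cre and transgene, and wild-type (wt) mice carry none of these. No group carries Cre alone, so an effect of Cre cannot be told apart from that of the cluster. Stimulated cells of every genotype spent 24 h on plates coated with 0.5 µg/ml anti-CD3 and 0.2 µg/ml anti-CD28, in medium with 50 U/ml interleukin-2, while naive cells were not cultured, so culture and stimulation cannot be told apart. Each genotype had 4 stimulated and 4 naive libraries, except rescue with 3 of each. CD28-/- and rescue mice were all female by their sex-linked transcripts, against 2 of 4 T1792del, 1 of 4 T1792tg and 3 of 4 wt mice in each state. The labels state no ages.

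Stimulated libraries held 22267060 to 28020721 counts in all, and naive libraries 19427291 to 24982429. Levels are given as CPM, counts divided by the TMM-scaled size of their library. The CD4 T cell markers were present in every library. The Mir17 precursor had no counts in stimulated T1792del libraries, and in naive libraries it averaged 6.55 ± 0.9 CPM with T1792tg, 6.88 ± 1.84 CPM with rescue and 0.334 ± 0.0969 CPM with wt (SD). Its host transcript Mir17hg averaged 172 ± 11.8 CPM in stimulated T1792del and 20.7 ± 2.44 CPM in stimulated wt libraries. The Rosa26 transcript Gt(ROSA)26Sor stood at 13.6 ± 1.4 CPM in T1792del and 0.215 ± 0.101 CPM in wt libraries of naive cells, although no Rosa26 allele is labelled for T1792del, and the reason was not tested. Cd28 averaged 539 ± 40.4 CPM in stimulated CD28-/- and 342 ± 35.5 CPM in stimulated wt libraries, so the count per gene does not check the CD28-/- label. Summed myeloid markers stood highest in naive T1792del libraries, at 320 to 453 CPM against 201 to 275 CPM in naive wt libraries, and lay between 35.6 and 48.3 CPM in all stimulated groups. No pair of libraries of 1 group agreed within sampling noise. The labels do not say whether a naive and a stimulated library came from the same mouse.

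A T cell that meets antigen needs signals from its receptor and from CD28 to transcribe most cytokine genes. The receptor brings NFAT to their promoters through calcium and calcineurin, and CD28 adds to NF-kB and AP-1 activity and prolongs the life of several cytokine mRNAs. Many of these mRNAs carry AU-rich elements, built around ATTTA, that bind decay factors such as Zfp36. The miR-17∼92 cluster makes 6 microRNAs that repress mRNAs matching their seeds, and it is known to promote T cell growth and survival. The question behind the design is what the cluster contributes to costimulation.

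The guide strands of the cluster are shown because their seeds (bases 2 to 8, in capitals) define what the deletion removes and the transgene adds. They come from RefSeq on GRCm38.p6, all from the plus strand of chromosome 14.
mmu-miR-17-5p: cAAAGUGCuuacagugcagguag
mmu-miR-20a-5p: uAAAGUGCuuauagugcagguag
mmu-miR-18a-5p: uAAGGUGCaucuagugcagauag
mmu-miR-19a-3p: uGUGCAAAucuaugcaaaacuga
mmu-miR-19b-3p: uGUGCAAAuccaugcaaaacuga
mmu-miR-92a-3p: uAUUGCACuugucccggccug
The first pair share 1 seed, miR-19a and miR-19b share another, and miR-18a differs from the first pair in its seed. The longest annotated 3′ UTR of each gene (GENCODE) was searched for the DNA complement of each seed.

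Seed matches were present in 3 of the 10 cytokine genes, Lif, Tnf and Il1a. Lif held 1 match to miR-17 and miR-20a, 1 to miR-18a and 2 to miR-19 in a UTR of 3180 bases. Tnf held 1 match to miR-19 and 1 to miR-92a in 764 bases, and Il1a held 1 match to miR-18a in 1101 bases. Among 20829 genes, 11.9% held a match to miR-17 and miR-20a, 7.88% to miR-18a, 11.6% to miR-19 and 6.62% to miR-92a. The share of all genes with a match to any of these seeds was not counted, so 3 of 10 has no share beside it. The median UTR length over all genes was 976 bases. The matches are shown in capitals with 10 bases on either side, since they are the only ones found in these UTRs.
Lif, miR-17 and miR-20a: cactctctaaGCACTTTacctggacgg
Lif, miR-18a: acgcggttttGCACCTTtctctgtcac
Lif, miR-19, upstream: ttcacgcggtTTTGCACctttctctgt
Lif, miR-19, downstream: cagcctctccTTTGCACtgctgctctc
Tnf, miR-19: tctatttataTTTGCACttattattta
Tnf, miR-92a: cttccctgagGTGCAATgcacagcctt
Il1a, miR-18a: atctcactgtGCACCTTcggcttcaaa
The upstream miR-19 match of Lif overlaps its miR-18a match. The miR-19 match of Tnf lies among ATTTA repeats. ATTTA itself was present in the UTRs of all 10 cytokine genes and in 65.7% of all genes, with a median of 6.87 copies per 1000 bases in the cytokine genes and 1.26 in all genes. Csf2 had the densest run, with 9 copies in 317 bases. A match is a description of letters, and no binding was measured.

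At 24 h the T1792tg group had the highest mean of all 10 cytokine genes. The lowest mean belonged to CD28-/- cells for 6 genes (Il3, Lif, Tnf, Csf2, Il1a and Il21) and to T1792del cells for the other 4. For Tnf, Il4, Il10 and Il13 the T1792tg libraries overlapped those of the next genotype. How many of all genes rank in this way was not counted. Per kilobase of the deposited gene length, the most abundant in stimulated T1792tg cells was Lta at 144 ± 18.8 RPKM, then Tnf at 36.2 ± 5.25, Lif at 30.5 ± 2.25, Il3 at 21.5 ± 7.73 and Il1a at 11.7 ± 2.96 RPKM (SD, n = 4). Csf2, Il4, Il13, Il21 and Il10 stood at 3.07, 1.82, 1.72, 0.676 and 0.509 RPKM in the same libraries.

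**Figure D1:**
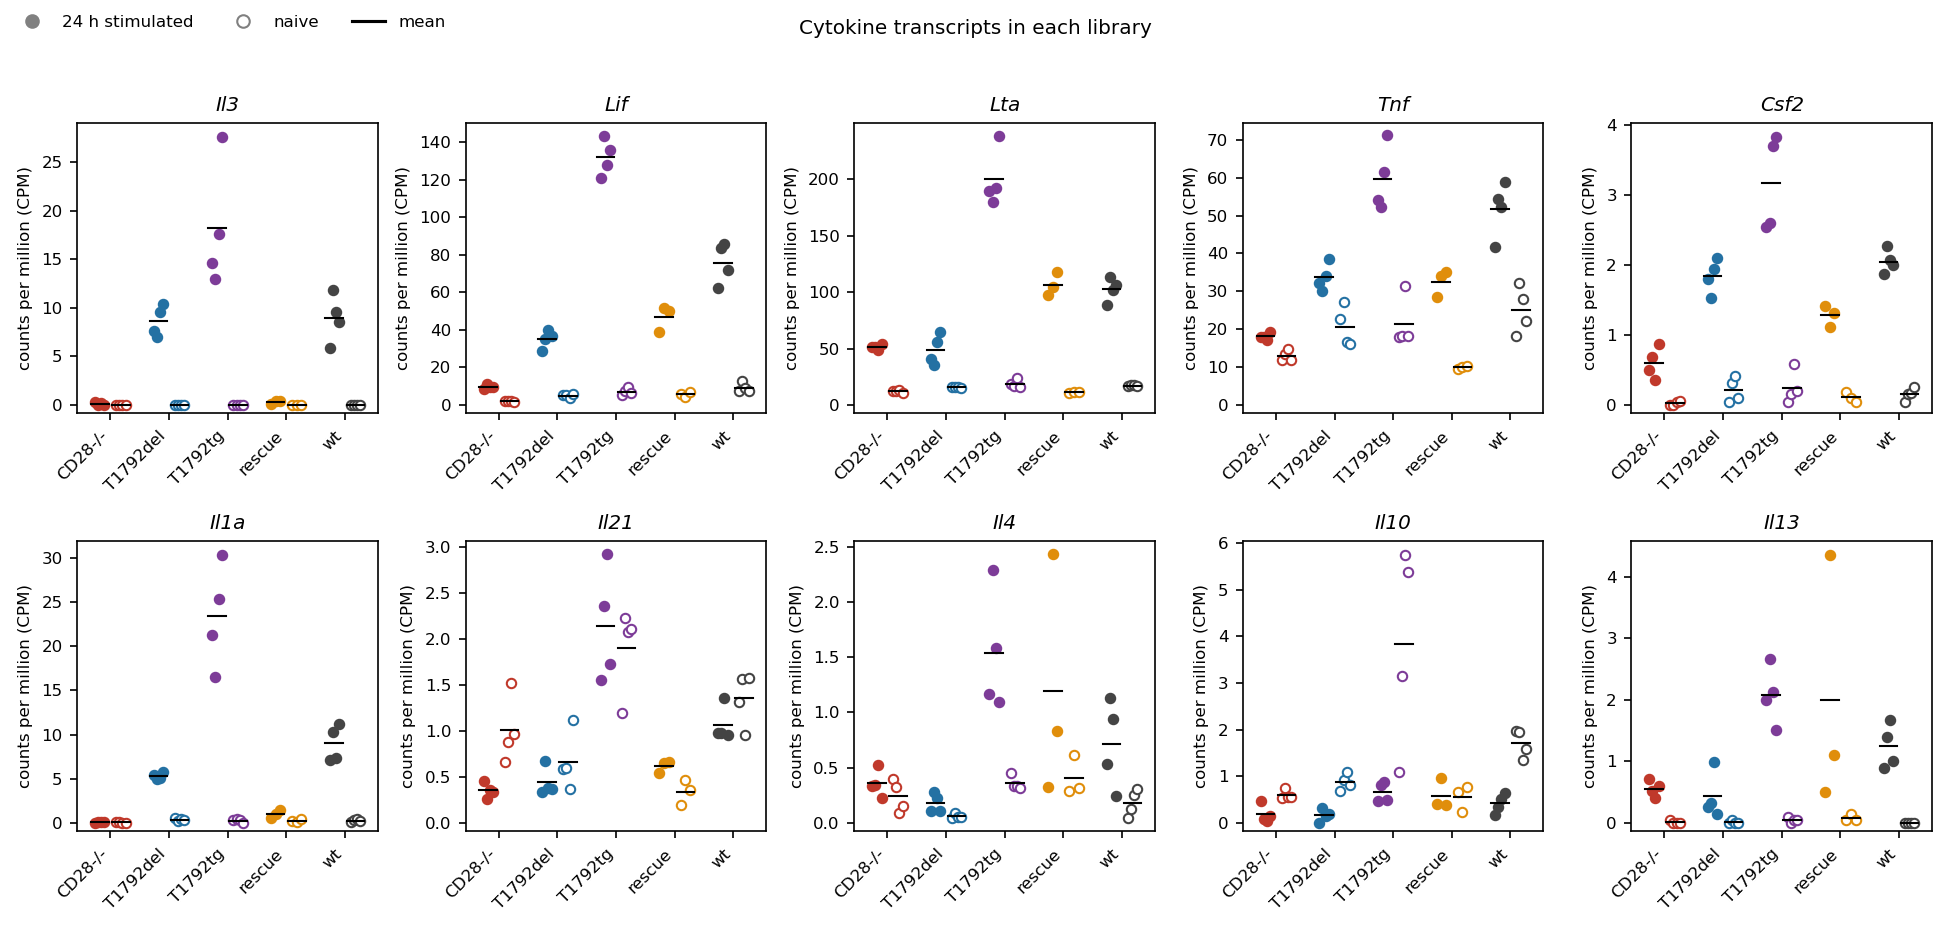
Each panel plots 1 cytokine gene in CPM on a linear axis, by genotype, with stimulated libraries as filled circles left of naive libraries as open circles, and black bars at the group means. Il3 and Il1a sit near 0 in stimulated CD28-/- and rescue libraries, while Lta in rescue libraries lies level with wt, and rescue replicate 2 is the highest point for Il4 and Il13.

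Lta and Tnf encode lymphotoxin-alpha and tumour necrosis factor, neighbouring genes of the TNF family at chr17:35203165-35205578 and chr17:35199367-35202007 (GRCm38.p6). At 24 h Lta had 51.2, 51.3, 48.6 and 54 CPM in CD28-/- libraries, 40.3, 35.8, 55.6 and 64.4 CPM in T1792del, 189, 180, 192 and 238 CPM in T1792tg, 97.6, 104 and 118 CPM in rescue, and 88.3, 113, 102 and 106 CPM in wt libraries. T1792tg libraries lay above all others, rescue and wt libraries overlapped, and T1792del and CD28-/- libraries overlapped below them. Tnf had 17.9, 18, 17.2 and 19.4 CPM in CD28-/-, 32.3, 30.2, 34.1 and 38.5 CPM in T1792del, 54, 52.2, 61.6 and 71.3 CPM in T1792tg, 28.6, 34 and 35.2 CPM in rescue, and 41.7, 54.5, 52.2 and 58.9 CPM in wt libraries. CD28-/- libraries stood apart at the bottom, rescue overlapped T1792del, and T1792tg overlapped wt.

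Lif encodes leukemia inhibitory factor, an interleukin-6 family cytokine (chr11:4257568-4272514). It had 8.58, 11.3, 9.6 and 9.51 CPM in stimulated CD28-/-, 28.7, 35.3, 39.9 and 36.7 CPM in T1792del, 121, 143, 128 and 136 CPM in T1792tg, 39, 51.5 and 49.9 CPM in rescue, and 62.3, 83.6, 85.5 and 72.1 CPM in wt libraries. Among neighbours in this order, rescue and T1792del alone overlapped.

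Il3 and Csf2 encode interleukin-3 and GM-CSF, growth factors of myeloid cells that share a receptor chain, and lie side by side at chr11:54265085-54267279 and chr11:54247270-54249899. Il3 had 0.293, 0.0431, 0.201 and 0 CPM in stimulated CD28-/- libraries (7, 1, 5 and 0 counts) and 0.0723, 0.463 and 0.416 CPM in rescue libraries (2, 12 and 12 counts). It had 7.57, 7.03, 9.53 and 10.4 CPM in T1792del, 14.6, 13, 17.6 and 27.6 CPM in T1792tg, and 5.87, 11.8, 9.59 and 8.5 CPM in wt libraries. CD28-/- and rescue libraries overlapped far below the others, and T1792del libraries lay within reach of wt. Csf2 was low throughout, at 0.502, 0.69, 0.362 and 0.868 CPM in CD28-/-, 1.81, 1.53, 1.95 and 2.1 CPM in T1792del, 2.54, 2.6, 3.7 and 3.84 CPM in T1792tg, 1.41, 1.12 and 1.32 CPM in rescue, and 1.87, 2.27, 2.07 and 2 CPM in wt libraries. Its order of means was the same as for Il3, but the 5 genotypes lay much closer together.

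Il1a encodes interleukin-1 alpha, an alarm cytokine better known from epithelial and myeloid cells (chr2:129299609-129310186). It had 0.0418, 0.129, 0.121 and 0.0755 CPM in stimulated CD28-/- libraries (1, 3, 3 and 2 counts) and 0.506, 1 and 1.49 CPM in rescue libraries. It had 5.39, 4.97, 5.13 and 5.76 CPM in T1792del, 21.3, 16.5, 25.4 and 30.4 CPM in T1792tg, and 7.17, 10.3, 7.33 and 11.2 CPM in wt libraries. No neighbours in this order overlapped. Summed myeloid markers lay between 35.6 and 48.3 CPM in all stimulated groups. Of the 14 markers, Cd14 and C1qa had no counts in rescue and C1qb had none in CD28-/- libraries. Against stimulated wt cells, 3 of the 14 were higher and 1 lower in CD28-/- cells (23.7% and 27.8% of all genes). In rescue cells 0 were higher and 2 lower (17.4% and 17.7% of all genes). Their part was not tested.

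Il4 and Il13 encode the type 2 helper cytokines that act through the interleukin-4 receptor alpha chain (chr11:53612460-53618665 and chr11:53631323-53634702). At 24 h Il4 had 0.335, 0.345, 0.522 and 0.226 CPM in CD28-/-, 0.111, 0.284, 0.23 and 0.112 CPM in T1792del, 1.17, 2.29, 1.58 and 1.09 CPM in T1792tg, 0.325, 2.43 and 0.833 CPM in rescue, and 0.534, 1.13, 0.936 and 0.24 CPM in wt libraries. Il13 had 0.711, 0.518, 0.402 and 0.604 CPM in CD28-/-, 0.259, 0.32, 0.995 and 0.15 CPM in T1792del, 1.99, 2.67, 2.12 and 1.51 CPM in T1792tg, 0.506, 4.36 and 1.11 CPM in rescue, and 0.89, 1.4, 1.68 and 1 CPM in wt libraries. Rescue replicate 2, with 63 counts of Il4 and 113 of Il13, was the highest of all 19 stimulated libraries for both genes, and its sister libraries had 9 and 24 counts of Il4 and 14 and 32 of Il13. Mast cell and basophil markers summed to 3.8 to 5.13 CPM in rescue and 5.77 to 11.3 CPM in wt libraries at 24 h (0 of 7 tested higher, 1 lower). Fcer1a, of that list, was at 0 in rescue. Rescue replicate 2 had the 5.13 CPM, against 3.8 and 3.82 CPM. It was also highest in natural killer and CD8 markers (181 against 131 and 163 CPM) and memory and follicular helper markers (665 against 556 and 573 CPM). It was lowest in B cell markers (57.7 against 59.2 and 89.5 CPM) and regulatory T cell markers (1270 against 1280 and 1320 CPM). Their part was not tested.

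Il21 encodes a cytokine of follicular helper T cells that drives B cell responses (chr3:37222759-37232636), and Il10 an anti-inflammatory cytokine made by regulatory and effector T cells (chr1:131019845-131024970). Il21 had 0.259 to 0.46 CPM in stimulated CD28-/-, 0.332 to 0.675 CPM in T1792del, 1.56 to 2.93 CPM in T1792tg, 0.542 to 0.659 CPM in rescue, and 0.962 to 1.36 CPM in wt libraries. T1792tg libraries lay above all others, and CD28-/-, T1792del and rescue libraries lay below wt. Il10 had 0.0402 to 0.46 CPM in CD28-/-, 0 to 0.32 CPM in T1792del, 0.469 to 0.886 CPM in T1792tg, 0.382 to 0.964 CPM in rescue, and 0.178 to 0.641 CPM in wt libraries. Every pair of neighbours in the order of Il10 overlapped, as for Il4.

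In naive libraries Il3 had 0 counts in every one of the 19, so its level lay below 0.0346 CPM in CD28-/-, 0.0369 CPM in T1792del and 0.0321 CPM in T1792tg as pooled groups (3 counts over the group, counting error only). Il13 had 0 to 3 counts per naive library, with 1 count in all over the CD28-/- group, 1 over T1792del and none over wt. Csf2 had 0, 0, 1 and 1 counts in naive CD28-/- libraries. The other 7 genes could be read in every naive group, although Il4 and Il1a there rested on 13 counts or fewer per library.

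After 24 h, 8 of 10 cytokine genes were higher in wt cells than in naive wt cells, where 41.3% of all tested genes were higher. Il10 was lower, as were 43.9% of all genes, and Il21 was not called. Lif stood at 75.9 ± 10.8 CPM in stimulated and 9.26 ± 2.38 CPM in naive wt libraries (log2 fold change 3.03 ± 0.16 SE, edgeR quasi-likelihood adjusted p = 7.3e-19). Lta rose by 2.57 ± 0.13 and Tnf by 1.04 ± 0.16 on the log2 scale (adjusted p = 1.8e-19 and 4.6e-07). Tnf was thus already well read in naive cells, at 18.1, 32.2, 28 and 22.2 CPM in naive wt libraries. Il1a rose by 4.97 ± 0.33 and Csf2 by 3.65 ± 0.43 (adjusted p = 5.8e-16 and 1.4e-09). Il4 rose by 1.95 ± 0.55 on few counts (adjusted p = 0.0016). Il3 was at least 266-fold higher and Il13 at least 36.9-fold higher than the level that 3 pooled counts would give in naive wt cells. Il10 averaged 0.417 ± 0.201 CPM in stimulated and 1.7 ± 0.3 CPM in naive wt libraries (log2 fold change -2.01 ± 0.48, adjusted p = 0.00026). Il21 had 0.962 to 1.36 CPM in stimulated and 0.962 to 1.58 CPM in naive wt libraries, which overlapped (log2 fold change -0.33 ± 0.29, adjusted p = 0.28). The median log2 fold change of the 10 genes was 2.8 in wt cells, and -0.06 over all genes. Markers of other cells were lower over the same comparison, with B cell markers at 29.1 to 75.3 CPM in stimulated and 199 to 417 CPM in naive wt libraries (10 of 10 lower) and myeloid markers at 39.8 to 48.3 and 201 to 275 CPM (14 of 14 lower). Their part in the change of any cytokine gene, Il10 included, was not tested.

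**Figure D2:**
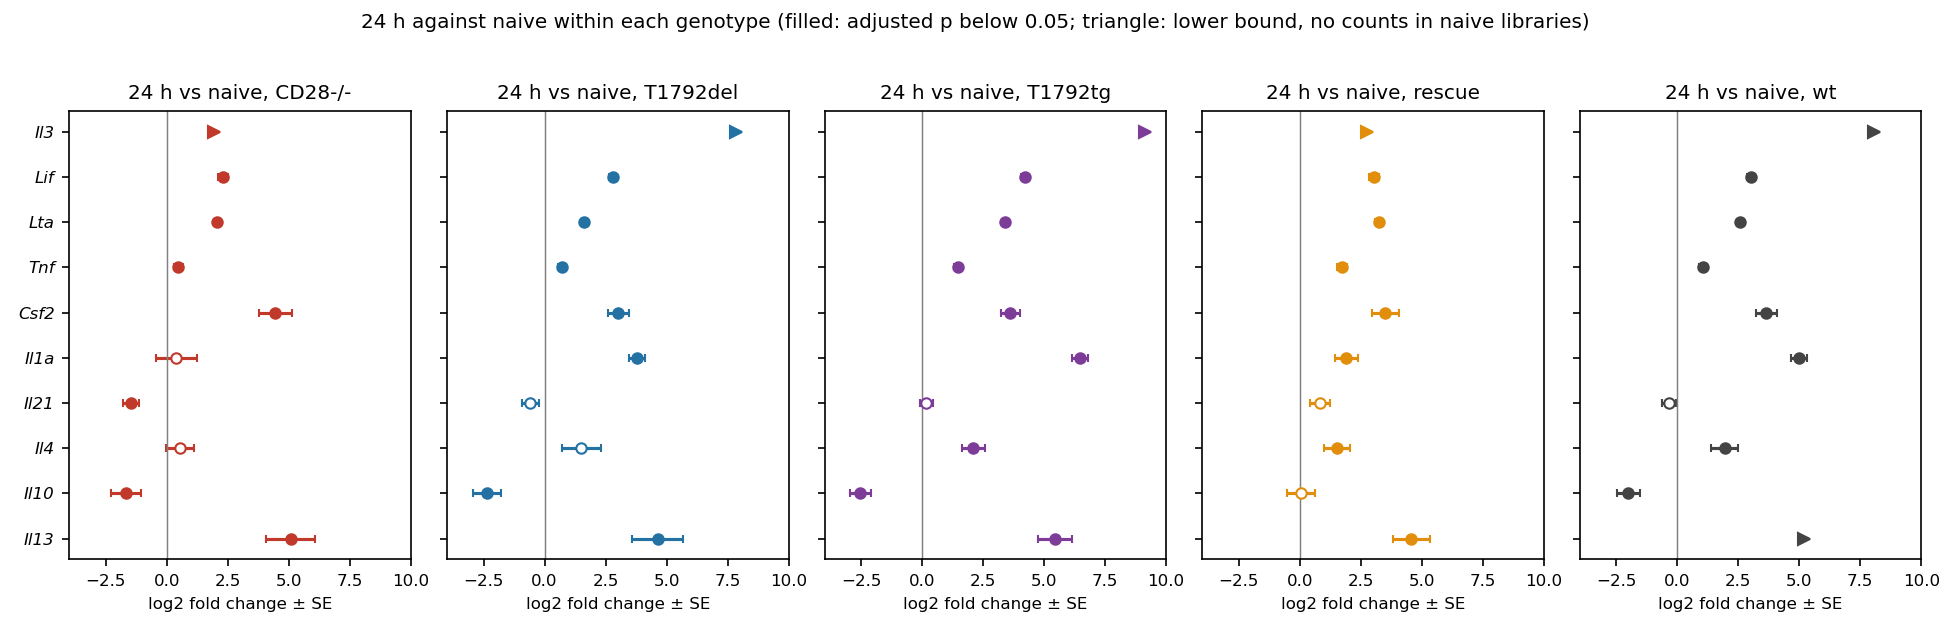
Log2 fold changes ± SE of stimulated over naive cells for the 10 cytokine genes, 1 panel per genotype, with filled symbols for adjusted p below 0.05 and triangles for lower bounds where naive libraries had no counts. Lif, Lta, Tnf and Csf2 are filled right of 0 in all 5 panels, whereas Il1a is open in CD28-/- cells and Il10 is filled left of 0 in all panels but rescue.

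In the other genotypes the same comparison was made. CD28-/- cells had 6 genes higher and 2 lower than naive CD28-/- cells (39.7% and 41.2% of all genes), T1792del cells 7 and 1 (41.4% and 43.7%), T1792tg cells 8 and 1 (41% and 44.1%), and rescue cells 8 and 0 (38.8% and 40.8%). Lif, Lta, Tnf, Csf2, Il3 and Il13 were higher at 24 h in every genotype. Il1a was called higher in T1792del (log2 fold change 3.78 ± 0.33), T1792tg (6.47 ± 0.33) and rescue cells (1.91 ± 0.46). In CD28-/- cells Il1a had 9 counts over the stimulated and 6 over the naive group (log2 fold change 0.38 ± 0.84, adjusted p = 0.68). Il21 was lower at 24 h in CD28-/- cells, at 0.355 ± 0.0829 CPM against 1.01 ± 0.364 CPM in naive ones (log2 fold change -1.49 ± 0.33, adjusted p = 0.00013). Il3 was at least 3.82-fold higher than its naive limit in CD28-/-, 233-fold in T1792del, 569-fold in T1792tg and 6.78-fold in rescue cells. The call of Il3 in CD28-/- cells was lost without stimulated CD28-/- replicate 1, which held 7 of the group's 13 counts (adjusted p = 0.056). Csf2 in CD28-/- cells was 26.5-fold higher than in naive ones, with a 95% counting interval of 7.01 to 223, since the naive group held 2 counts. Il4 in rescue cells was called through stimulated rescue replicate 2 (log2 fold change 1.54 ± 0.54, adjusted p = 0.01, and 0.52 with adjusted p = 0.39 without it).

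Whether the response itself differed from that of wt cells was tested as an interaction over 8 genes, since Il3 and Il13 had no naive wt counts. In CD28-/- cells the change of 5 of the 8 was lower than in wt cells, where that of 22.4% of all genes was lower and of 20.8% higher. Lif, Lta, Tnf and Il1a rose less or were not called in CD28-/- cells, whereas Il21 fell in CD28-/- cells and was not called in wt cells. Il1a stood out in size, with a response that differed by -4.59 ± 1.14 on the log2 scale (adjusted p = 0.0013). For Lif, Lta, Tnf and Il21 the difference was -0.73 ± 0.26, -0.52 ± 0.18, -0.57 ± 0.24 and -1.16 ± 0.44 (adjusted p = 0.023, 0.018, 0.048 and 0.032). The count of 5 fell to 2 without naive CD28-/- replicate 3, and to 3 without stimulated CD28-/- replicate 2 or stimulated wt replicate 3. The call of Tnf was lost in 10 of 16 such omissions, that of Il21 in 5 (adjusted p = 0.052 to 0.11) and that of Lif in 1 (adjusted p = 0.064). In T1792del cells Lta alone responded less than in wt cells (difference -0.94 ± 0.18, adjusted p = 0.0013, 2.95% of all genes lower and 3.15% higher). In T1792tg cells Lif and Lta responded more, by 1.19 ± 0.22 and 0.83 ± 0.18 (adjusted p = 0.00036 and 0.0015, 8.59% of all genes higher and 7.41% lower).

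Stimulated CD28-/- cells were next set against stimulated wt cells, the comparison that asks which genes depend on CD28. Of the 10 cytokine genes 8 were lower and 0 higher, where 27.8% of all genes were lower and 23.7% higher. In bulk RNA a smaller share of producing cells and less transcript per cell cannot be told apart. Il1a and Il3 were lowest relative to wt. Il1a averaged 0.0918 ± 0.0408 CPM in CD28-/- and 9 ± 2.05 CPM in wt libraries (log2 fold change -6.54 ± 0.39, 93.2-fold lower, adjusted p = 1.2e-15, n = 4 each). Il3 averaged 0.134 ± 0.137 CPM in CD28-/- and 8.93 ± 2.45 CPM in wt libraries (log2 fold change -6.02 ± 0.47, 65.1-fold lower, adjusted p = 8.2e-10). These gaps can be set beside Lif, at 7.78-fold lower (log2 fold change -2.96 ± 0.16, adjusted p = 9.8e-17), and Tnf, at 2.86-fold lower (-1.52 ± 0.17, adjusted p = 2e-09). Csf2, Il21 and Lta were lower by 3.36, 2.99 and 1.99 times (adjusted p = 7.7e-05, 0.00013 and 1.7e-08). Csf2, the neighbour of Il3, thus kept a readable level of 0.605 ± 0.221 CPM in CD28-/- cells where Il3 was near its limit. Il13 was called at adjusted p = 0.048 (log2 fold change -1.15 ± 0.49) and lost the call in 6 of 8 omissions of a library. Il4 (-1.0 ± 0.49, adjusted p = 0.087) and Il10 (-1.17 ± 0.61, adjusted p = 0.11) did not pass, and their groups overlapped. Il4 passed without wt replicate 4 (-1.28, adjusted p = 0.028), and Il10 without CD28-/- replicate 1 (-2.10, adjusted p = 0.015). Natural killer and CD8 T cell markers summed to 48.2 to 54 CPM in CD28-/- and 75.4 to 131 CPM in wt libraries (1 of 10 higher, 7 lower). Regulatory T cell markers summed to 917 to 956 and 924 to 962 CPM (4 of 9 higher, 5 lower), with Foxp3 at 5.97 ± 1.16 and 9.42 ± 0.88 CPM. CD4 T cell markers were higher in 7 of 9 and lower in 1, B cell markers in 3 of 10 and 0, and myeloid markers in 3 of 14 and 1. Memory and follicular helper markers were higher in 1 of 11 tested and lower in 2, and mast cell and basophil markers in 0 of 7 tested and 1. Their part was not tested.

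**Figure D3:**
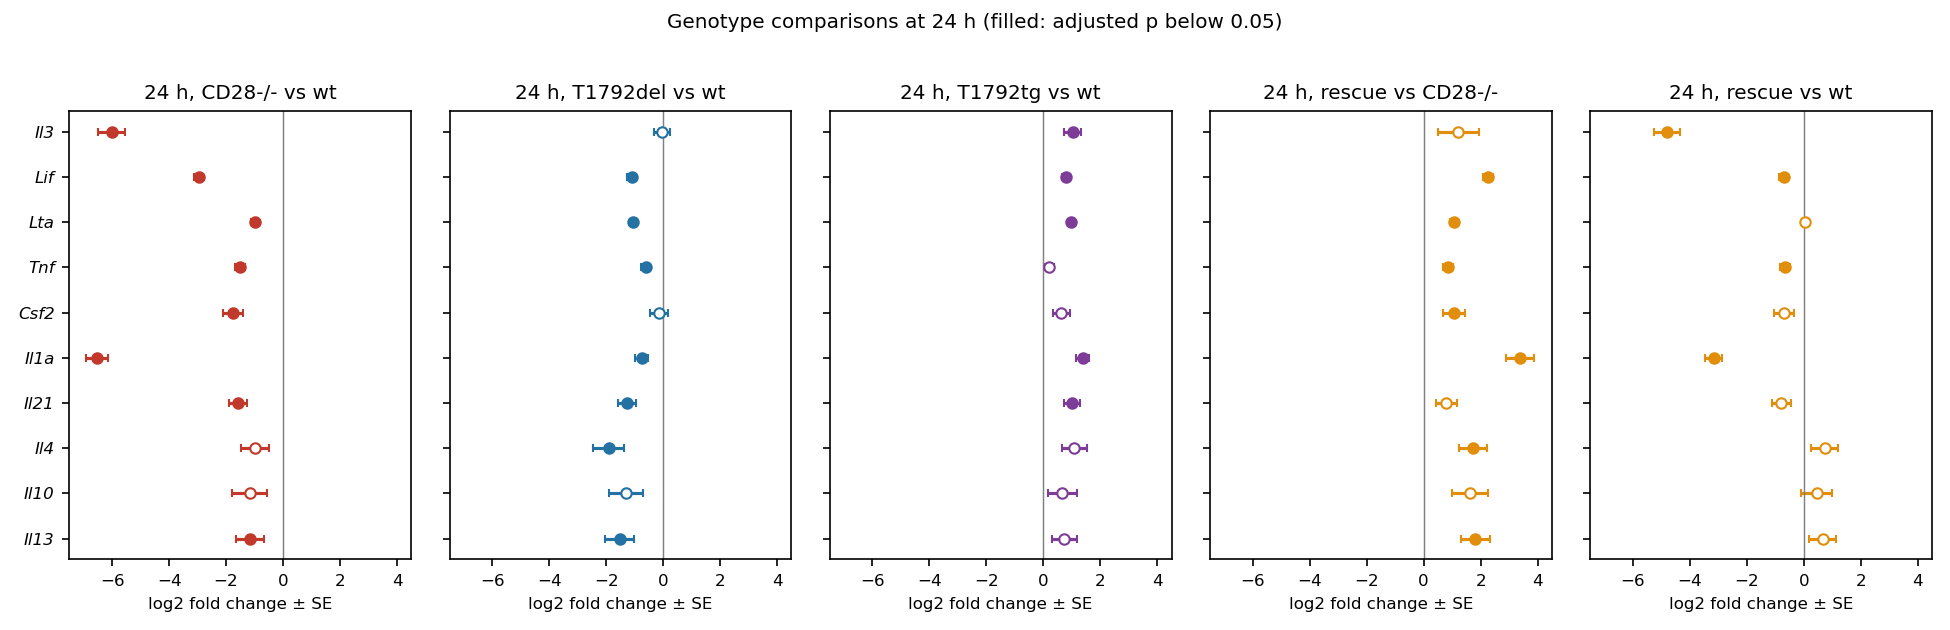
Log2 fold changes ± SE between stimulated genotypes, with the 10 cytokine genes down the page and filled circles for adjusted p below 0.05. Il3 and Il1a lie far left in CD28-/- against wt (-6.02 and -6.54), Il1a lies far right in rescue against CD28-/- (3.38), and Il3 stays far left in rescue against wt (-4.80) while Lta lies at 0.06.

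Deleting the cluster gave a different pattern. Of the 10 genes 7 were lower in stimulated T1792del than in stimulated wt cells and 0 higher, where 8.47% of all genes were lower and 7.77% higher. Il3 and Csf2 were not called, with log2 fold changes of -0.05 ± 0.29 (95% interval -0.66 to 0.55) and -0.15 ± 0.32 (-0.79 to 0.49). Lif averaged 35.2 ± 4.7 CPM in T1792del and 75.9 ± 10.8 CPM in wt libraries (log2 fold change -1.11 ± 0.15, adjusted p = 1.3e-06). Lta was lower by 2.08 times (-1.06 ± 0.12, adjusted p = 1.1e-07) and Tnf by 1.54 times (-0.62 ± 0.16, adjusted p = 0.0073). For Lif, Lta and Tnf no T1792del library reached a wt library. In all, 5 of the 10 genes had no overlap here, a separation not counted over all genes. Il1a was 1.69 times lower (-0.76 ± 0.23, adjusted p = 0.021), and the call was lost without T1792del replicate 2, wt replicate 2 or wt replicate 4. Il21, Il4 and Il13 were lower by 1.27 ± 0.31, 1.92 ± 0.53 and 1.53 ± 0.50 on the log2 scale (adjusted p = 0.005, 0.011 and 0.033). The Il13 call was lost in 5 of 8 omissions and the Il4 call without wt replicate 2, and the count of 7 fell to 4 without that wt library. Il10 did not pass (-1.31 ± 0.61, adjusted p = 0.14). Regulatory T cell markers summed to 677 to 728 CPM in stimulated T1792del and 924 to 962 CPM in stimulated wt libraries (3 of 9 lower, 0 higher). Foxp3, of that list, stood at 9.36 ± 1.57 CPM in T1792del and 9.42 ± 0.88 CPM in wt libraries. Natural killer and CD8 T cell markers summed to 46.9 to 90.7 CPM in T1792del and 75.4 to 131 CPM in wt libraries (2 of 10 lower, 1 higher). Their part was not tested.

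Forced expression of the cluster went the other way. Of the 10 genes 5 were higher in stimulated T1792tg than in stimulated wt cells and 0 lower, where 6.1% of all genes were higher and 6.45% lower. Il1a averaged 23.4 ± 5.91 CPM in T1792tg and 9 ± 2.05 CPM in wt libraries (log2 fold change 1.38 ± 0.22, adjusted p = 5.4e-05). Lta was 1.95 times higher (0.97 ± 0.12, adjusted p = 6.3e-07) and Lif 1.74 times higher (0.80 ± 0.14, adjusted p = 0.00018). In all 3 genes every T1792tg library lay above every wt library, a separation not counted over all genes. Il3 was higher by 1.03 ± 0.29 on the log2 scale (adjusted p = 0.023), and lost the call without T1792tg replicate 3 or 4 or wt replicate 1 or 4. Il21 was higher by 1.0 ± 0.28 (adjusted p = 0.015), and lost the call without T1792tg replicate 3. Without that library 3 of the 10 genes were called. Tnf did not pass (0.21 ± 0.16, 95% interval -0.12 to 0.53, adjusted p = 0.45), and neither did Csf2 (0.63 ± 0.31), Il4 (1.09 ± 0.43), Il13 (0.73 ± 0.44) and Il10 (0.66 ± 0.51, adjusted p = 0.09 to 0.45 for these 4). T1792tg mice were mostly male and wt mice mostly female, and with a term for sex 5 genes were still called.

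Markers of natural killer and CD8 T cells summed to 173 to 244 CPM in stimulated T1792tg and 75.4 to 131 CPM in stimulated wt libraries (5 of 10 higher, 0 lower). Cd8a, of that list, did not follow the sum, at 7.58 ± 3.75 CPM in T1792tg and 8.12 ± 1.98 CPM in wt libraries. Regulatory T cell markers summed to 1180 to 1250 CPM in T1792tg and 924 to 962 CPM in wt libraries (4 of 9 higher, 0 lower). Foxp3, of that list, stood at 6.47 ± 2.23 CPM in T1792tg and 9.42 ± 0.88 CPM in wt libraries, opposite to the sum. Memory and follicular helper T cell markers summed to 608 to 651 CPM in T1792tg and 472 to 552 CPM in wt libraries (2 of 11 tested higher, 0 lower). The part of these markers was not tested.

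Set against each other, T1792tg and T1792del cells differed in all 10 genes at 24 h, each higher in T1792tg, where 16.6% of all genes were higher. Every T1792tg library lay above every T1792del library for all 10. How many of all tested genes separated in this way was not counted. Il4 averaged 1.53 ± 0.545 CPM in T1792tg and 0.184 ± 0.0868 CPM in T1792del libraries (log2 fold change 3.02 ± 0.50, adjusted p = 1.3e-05). Il21, Il13 and Il10 followed with 2.26 ± 0.30, 2.26 ± 0.49 and 1.97 ± 0.58 (adjusted p = 3e-07, 0.00046 and 0.0074). Lta and Lif, which had the smallest errors, differed by 2.03 ± 0.12 and 1.91 ± 0.15. Il1a differed by 2.14 ± 0.23, Il3 by 1.08 ± 0.29 and Tnf by 0.82 ± 0.16, also past the threshold. Csf2 passed only narrowly (0.78 ± 0.31, adjusted p = 0.05 as rounded), and lost the call in 6 of 8 omissions, with a term for sex (adjusted p = 0.069) and with no filter on low counts (adjusted p = 0.06). Natural killer and CD8 T cell markers summed to 173 to 244 CPM in T1792tg and 46.9 to 90.7 CPM in T1792del libraries (5 of 10 higher, 1 lower). Regulatory T cell markers summed to 1180 to 1250 CPM in T1792tg and 677 to 728 CPM in T1792del libraries (6 of 9 higher, 2 lower). Within these lists Foxp3 stood at 6.47 ± 2.23 CPM in T1792tg and 9.36 ± 1.57 CPM in T1792del libraries, and Cd8a at 7.58 ± 3.75 and 5.99 ± 2.92 CPM. Their part was not tested. This comparison shares its libraries with the comparisons of each genotype with wt.

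The rescue cells ask whether the transgene changes cytokine genes in the absence of CD28. Of the 10 genes 7 were higher in stimulated rescue than in stimulated CD28-/- cells and 0 lower, where 9.52% of all genes were higher and 8.86% lower. Lif averaged 46.8 ± 6.81 CPM in rescue and 9.76 ± 1.15 CPM in CD28-/- libraries (log2 fold change 2.26 ± 0.16, 4.79-fold higher, adjusted p = 6.4e-12, n = 3 and 4). Lta was 2.08-fold higher (1.06 ± 0.13, adjusted p = 1.8e-07) and Tnf 1.8-fold higher (0.85 ± 0.18, adjusted p = 0.00062). Il1a was 10.4-fold higher (3.38 ± 0.50, adjusted p = 6.4e-06), on 83 counts over the rescue and 9 over the CD28-/- group. Il3 was not called (1.22 ± 0.73, 95% interval -0.30 to 2.75, adjusted p = 0.28), and neither were Il21 (0.79 ± 0.37, adjusted p = 0.14) and Il10 (1.63 ± 0.62, adjusted p = 0.063). Il10 passed with DESeq2 (1.67, adjusted p = 0.03) and without CD28-/- replicate 1 (2.56, adjusted p = 0.013). Csf2 was called at 1.07 ± 0.38 (adjusted p = 0.043), and lost the call in 6 of 7 omissions. Il4 and Il13 were called at 1.72 ± 0.49 and 1.82 ± 0.50 (adjusted p = 0.012 and 0.01), which rested on rescue replicate 2. Without it they stood at 0.70 and 0.53 (adjusted p = 0.47 and 0.59), and 4 of the 10 genes, Lif, Lta, Tnf and Il1a, were called. Beside these results, natural killer and CD8 T cell markers summed to 131 to 181 CPM in rescue and 48.2 to 54 CPM in CD28-/- libraries (4 of 10 higher, 0 lower). Regulatory T cell markers summed to 1270 to 1320 CPM in rescue and 917 to 956 CPM in CD28-/- libraries (4 of 9 higher, 2 lower). Within these lists Foxp3 stood at 3.74 ± 1.4 CPM in rescue and 5.97 ± 1.16 CPM in CD28-/- libraries, and Cd8a at 7.14 ± 1.23 and 6.54 ± 0.644 CPM. Their part was not tested.

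**Figure D4:**
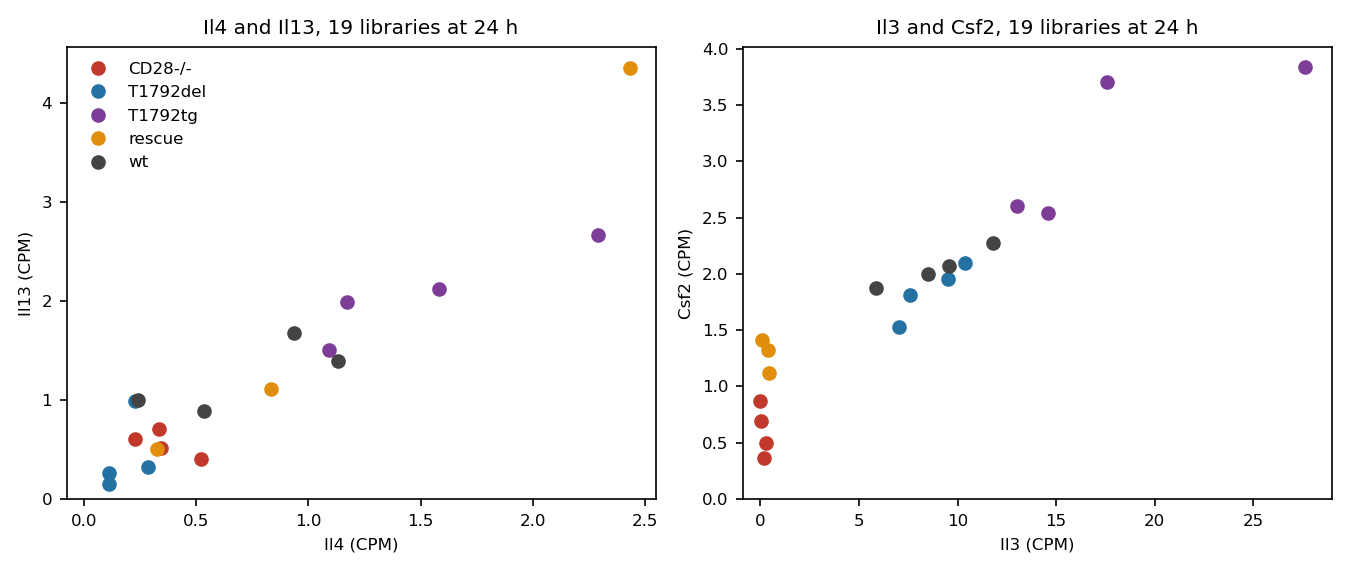
Levels in CPM of Il13 against Il4 (left) and of Csf2 against Il3 (right) in the 19 stimulated libraries, 1 point per library, coloured by genotype. Rescue replicate 2 lies at 2.43 and 4.36 CPM in the left panel, far from the other rescue points, and in the right panel the rescue and CD28-/- points line up near 0 CPM of Il3 but differ in Csf2.

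How near the rescue cells came to wt cells depended on the gene. Of the 10 genes 4 were lower in stimulated rescue than in stimulated wt cells, where 17.7% of all genes were lower, and 0 were higher, where 17.4% were. Lta averaged 107 ± 10.7 CPM in rescue and 102 ± 10.3 CPM in wt libraries (log2 fold change 0.06 ± 0.13, 95% interval -0.20 to 0.32, adjusted p = 0.75). Lif and Tnf stayed lower, by 0.70 ± 0.16 and 0.67 ± 0.18 on the log2 scale (adjusted p = 0.00069 and 0.0031). Il1a stayed 8.93-fold lower (-3.16 ± 0.30, adjusted p = 5e-10), and Il3 27.9-fold lower (-4.80 ± 0.46, adjusted p = 6.8e-08). Csf2 (-0.68 ± 0.35, adjusted p = 0.14) and Il21 (-0.79 ± 0.33, adjusted p = 0.06) did not pass, although no rescue library reached a wt library for either, a separation not counted over all genes. Both passed when the compared groups alone were fitted (-0.65 and -0.76, adjusted p = 0.012 and 0.024). Il4, Il10 and Il13 had positive values that did not pass (0.73 ± 0.46, 0.45 ± 0.55 and 0.67 ± 0.47), and each turned negative without rescue replicate 2 (-0.30, -0.11 and -0.62).

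Set against T1792tg cells, which carry the same transgene with CD28, rescue cells had 7 of the 10 genes lower, where 15.9% of all genes were lower. Il3 averaged 0.317 ± 0.213 CPM in rescue and 18.2 ± 6.56 CPM in T1792tg libraries (56.8-fold lower, log2 fold change -5.83 ± 0.46, adjusted p = 3.3e-09). Il1a was 23.2-fold lower (-4.53 ± 0.31, adjusted p = 1.5e-13) and Il21 3.45-fold lower (-1.79 ± 0.32, adjusted p = 4.4e-05). For Il3 the fold between cells without and with CD28 was thus 56.8 with the transgene and 65.1 without it, and the test of that difference gave 0.20 ± 0.70 on the log2 scale (95% interval -1.27 to 1.66, adjusted p = 0.95). Lif, Csf2, Lta and Tnf were lower by 1.5 ± 0.16, 1.30 ± 0.35, 0.90 ± 0.13 and 0.87 ± 0.18 on the log2 scale. Il4, Il10 and Il13 did not pass (-0.37 ± 0.44, -0.20 ± 0.52 and -0.07 ± 0.46), and without rescue replicate 2 Il4 and Il13 passed at -1.39 and -1.35 (adjusted p = 0.029 and 0.032).

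The effect of the transgene without CD28 (rescue over CD28-/-) was tested against its effect with CD28 (T1792tg over wt). Lif alone differed, by 1.46 ± 0.22 on the log2 scale (adjusted p = 0.0001), where 1.33% of all genes were higher in this sense. Its level was 4.79-fold higher with the transgene in CD28-/- cells and 1.74-fold higher in cells with CD28. A gap of this kind was already present in naive cells. There Lif differed by 1.52 ± 0.22 between rescue and CD28-/- cells and by -0.39 ± 0.17 between T1792tg and wt cells (adjusted p = 9e-06 and 0.089). The difference at 24 h is therefore not a difference in the response to stimulation, and the same contrast was not tested in naive cells. Il1a differed by 2.01 ± 0.58 and missed the threshold (adjusted p = 0.059), passing it with DESeq2 (adjusted p = 0.022) or without rescue replicate 1 (adjusted p = 0.014). Lta showed a difference of 0.09 ± 0.17 (95% interval -0.26 to 0.44). Against the naive state, Lta and Tnf rose more in rescue than in CD28-/- cells, by 1.19 ± 0.20 and 1.25 ± 0.26 (adjusted p = 0.00011 and 0.0016, 6.96% of all genes higher and 5.84% lower). Lif was not called in that comparison. The change of Il21 differed by 2.34 ± 0.53 (adjusted p = 0.0029), with a fall in CD28-/- cells and no call in rescue cells (0.85 ± 0.41, adjusted p = 0.055).

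Naive cells, which had not been cultured, also differed between genotypes. Jun and Fos averaged 922 ± 176 and 463 ± 69.6 CPM in naive wt libraries, against 19.2 ± 3.54 and 7.97 ± 0.854 CPM in stimulated wt libraries. Whether the state behind these levels bears on the cytokine genes of naive cells was not tested. Of 9 cytokine genes with an estimate, 6 were lower in naive CD28-/- than in naive wt cells and 0 higher, where 7.34% of all genes were lower and 7.42% higher. Lif had 2.03, 2.03, 2.26 and 1.54 CPM in CD28-/- and 7.64, 12.7, 9.04 and 7.68 CPM in wt libraries, with no overlap (log2 fold change -2.23 ± 0.20, adjusted p = 1.1e-09). Tnf had 12, 13.4, 14.8 and 12 CPM in CD28-/- and 18.1, 32.2, 28 and 22.2 CPM in wt libraries, also apart (-0.94 ± 0.17, adjusted p = 0.0003). How many of all genes separated in this way was not counted. Lta was lower by 0.47 ± 0.14 (adjusted p = 0.018), and lost the call without CD28-/- replicate 4. The other 3 rested on few counts. Il10 had 0.531 to 0.739 CPM in CD28-/- and 1.34 to 1.96 CPM in wt libraries (-1.50 ± 0.47, adjusted p = 0.028), and lost the call in 5 of 8 omissions. Il1a (6 counts over CD28-/-, 25 over wt, adjusted p = 0.048) and Csf2 (2 and 14 counts, adjusted p = 0.043) lost it in 5 and 7 of 8. Beside this, regulatory T cell markers summed to 203 to 217 CPM in naive CD28-/- and 312 to 347 CPM in naive wt libraries (7 of 9 lower, 1 higher), and Foxp3 stood at 4.63 ± 0.832 against 21.7 ± 1.63 CPM. Myeloid markers were lower in 4 of 14, at 136 to 294 against 201 to 275 CPM. Their part in these differences was not tested. No omission of a library from these groups kept the count of 6, which then ran from 2 to 5. It fell to 3 without CD28-/- replicate 3 or wt replicate 2, and to 2 without CD28-/- replicate 4.

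The other naive comparisons called few of these genes. In naive T1792del cells Lif was lower than in naive wt cells, at 5.02 ± 0.993 against 9.26 ± 2.38 CPM (log2 fold change -0.89 ± 0.18, adjusted p = 0.0018, 2.42% of all genes lower). Il21 was lower as well (-1.02 ± 0.31, adjusted p = 0.045), and lost the call in 6 of 8 omissions, leaving 1 gene. Beside this, 8 of 14 myeloid markers were higher and 0 lower in these naive T1792del libraries, and their part was not tested. In naive T1792tg cells Il10 alone was higher than in naive wt cells, at 1.1, 3.14, 5.75 and 5.38 CPM against 1.96, 1.94, 1.34 and 1.58 CPM (1.18 ± 0.41, adjusted p = 0.033, 10.5% of all genes higher). T1792tg replicate 1 lay below every wt library, and the call was lost in 5 of 8 omissions and with a term for sex (adjusted p = 0.06). Regulatory T cell markers summed to 365 to 497 CPM in naive T1792tg and 312 to 347 CPM in naive wt libraries, and their part was not tested. In naive rescue cells Lif was higher than in naive CD28-/- cells, at 5.67, 4.51 and 6.86 against 2.03, 2.03, 2.26 and 1.54 CPM (1.52 ± 0.22, adjusted p = 9e-06, 7.84% of all genes higher). Beside it, regulatory T cell markers summed to 247 to 280 CPM in naive rescue and 203 to 217 CPM in naive CD28-/- libraries (3 of 9 higher, 0 lower), and natural killer and CD8 T cell markers to 156 to 175 CPM in rescue and 114 to 155 CPM in CD28-/- libraries (3 of 10 higher, 0 lower), and their part was not tested. Il21 was lower in naive rescue cells, at 0.191, 0.469 and 0.361 against 0.664, 0.878, 1.52 and 0.973 CPM (-1.55 ± 0.38, adjusted p = 0.0038, 8.92% lower). Lif was thus the gene called between genotypes in 3 of the 4 naive comparisons.

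Over the 19 stimulated libraries, levels of several of these genes moved together. Pearson's r of log2(CPM + 0.5) was 0.96 between Il3 and Il1a, 0.96 between Lif and Tnf, 0.95 between Csf2 and Il1a, and 0.91 between Il4 and Il13. These libraries share their genotype groups, so the values describe the groups as much as the libraries. By the same measure, over 10601 genes with at least 1 CPM, Il2 was most like Il3 (r = 0.988), followed by Acsl6 and Utf1. Il2 averaged 6.96 CPM in CD28-/-, 128 CPM in T1792del, 215 CPM in T1792tg, 14.5 CPM in rescue and 155 CPM in wt libraries. Odc1, the first enzyme of polyamine synthesis, was most like Il1a (r = 0.987), with Perp and Itgb1 after it. Enc1 and the chemokine gene Ccl3 were among the 3 most like both Lif (r = 0.984 and 0.978) and Tnf (r = 0.978 and 0.97). Hmga1, Slc5a6 and Atp6v1e1 were most like Lta (r = 0.958 to 0.957), and Nop56, Tnfrsf10b and Cpd most like Csf2 (r = 0.966 to 0.96). Cd247, Tor3a and Gfi1 followed Il13 less closely (r = 0.869 to 0.856). Il4, Il10 and Il21 averaged below 1 CPM in these libraries and were left out.

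The 250 bases before the annotated start of 9 of the 10 genes are in RefSeq's table (GRCm38.p6). Il10 has no entry, and Il4 has 2. They were searched on both strands for GGAAA (the NFAT core), TGANTCA (AP-1), an NF-kB motif (GGG and CC with 5 bases between) and TATAAA (the TATA box), which can overlap one another. Of 10 entries 9 held GGAAA, 2 TGANTCA, 5 the NF-kB motif and 4 TATAAA, against 55.6%, 6.75%, 45.8% and 12.4% of all 32851 entries. The entries with TGANTCA were Lif and Il1a. The entries of Il3 and Csf2, neighbours with unlike folds between CD28-/- and wt cells, and of Lif are shown with every match in capitals (TTTCC is GGAAA on the other strand).
Il3, chr11:54267280-54267529, minus strand: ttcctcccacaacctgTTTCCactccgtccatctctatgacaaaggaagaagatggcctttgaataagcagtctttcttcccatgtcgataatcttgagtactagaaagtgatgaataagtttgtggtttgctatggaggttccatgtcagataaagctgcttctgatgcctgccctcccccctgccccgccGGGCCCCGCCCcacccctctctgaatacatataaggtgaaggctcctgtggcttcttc
Csf2, chr11:54249900-54250149, minus strand: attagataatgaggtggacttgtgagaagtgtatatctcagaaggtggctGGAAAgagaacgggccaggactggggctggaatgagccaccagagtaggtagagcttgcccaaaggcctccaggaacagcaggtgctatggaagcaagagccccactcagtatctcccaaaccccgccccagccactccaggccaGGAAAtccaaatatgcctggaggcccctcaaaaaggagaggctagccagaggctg
Lif, chr11:4257318-4257567, plus strand: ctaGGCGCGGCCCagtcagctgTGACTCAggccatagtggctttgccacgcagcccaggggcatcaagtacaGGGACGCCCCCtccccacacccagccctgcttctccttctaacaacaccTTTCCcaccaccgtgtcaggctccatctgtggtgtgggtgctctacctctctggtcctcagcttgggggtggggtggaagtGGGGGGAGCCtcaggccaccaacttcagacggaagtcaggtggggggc
Il3 held 1 GGAAA and 2 overlapping NF-kB matches, Csf2 held 2 GGAAA, and Lif held 1 GGAAA, 4 NF-kB matches and 1 TGANTCA. These letters were not tested for binding.

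Genes around these cytokines changed in their own ways. Of 18 tested receptor genes for the 10 cytokines, 15 were lower and 0 higher in stimulated than in naive wt cells, where 43.9% of all genes were lower and 41.3% higher, with Il4ra, the interleukin-4 receptor chain, at 191 ± 11.3 against 837 ± 113 CPM (log2 fold change -2.13 ± 0.10, adjusted p = 2e-20). In stimulated CD28-/- against wt cells 7 receptor genes were higher and 3 lower, where 23.7% of all genes were higher and 27.8% lower. The higher ones included Il6st, the signalling chain for Lif (0.70 ± 0.10), and the decoy receptor Il1r2 (1.83 ± 0.31 on the log2 scale). Il6st averaged 121 ± 6.41 CPM in stimulated CD28-/-, 74.1 ± 10.2 CPM in stimulated wt and 322 ± 6.04 CPM in naive wt libraries. In stimulated T1792tg against wt cells 3 were higher and 0 lower (6.1% and 6.45% of all genes), including Il21r (0.56 ± 0.08) and Il10ra (1.0 ± 0.19). The median log2 fold change of the receptor genes was 0.23 in CD28-/- against wt and 0.19 in T1792tg against wt, and -0.03 and -0.01 over all genes.

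Of 17 other cytokine and chemokine genes, 9 were lower and 3 higher in stimulated CD28-/- than in wt cells (27.8% and 23.7% of all genes). Il2 and Ccl3 were lower by 4.48 ± 0.20 and 3.07 ± 0.28 on the log2 scale, while Ltb, the membrane partner of lymphotoxin-alpha, was higher by 1.38 ± 0.11. Ltb averaged 147 ± 14.7 CPM in stimulated CD28-/-, 56.3 ± 7.18 CPM in stimulated wt and 361 ± 67.3 CPM in naive wt libraries. In T1792tg against wt cells 5 of the 17 were higher and 2 lower (6.1% and 6.45% of all genes), with Ifng, the type 1 cytokine interferon-gamma, at 65.5 ± 25.1 against 12.1 ± 5.95 CPM (2.43 ± 0.35, adjusted p = 7e-06).

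Of 22 transcription factors that act on cytokine genes, 9 were higher and 5 lower in stimulated CD28-/- than in wt cells, against 23.7% and 27.8% of all genes, so the share of lower ones lay near that of all genes. Tbx21, the T helper 1 factor, was lower by 3.97 ± 0.26 and Maf higher by 2.67 ± 0.22 on the log2 scale in CD28-/- cells. In T1792tg against wt cells 7 were higher and 0 lower (6.1% and 6.45% of all genes), among them Nfkb1 (0.54 ± 0.06), Jun (1.10 ± 0.14) and Fosb (2.01 ± 0.32). In naive CD28-/- against wt cells 0 were higher and 8 lower (7.42% and 7.34% of all genes). In stimulated against naive wt cells 5 were higher and 15 lower (41.3% and 43.9% of all genes). The 4 with the smallest p were all lower: Jun (-5.58 ± 0.16), Fos (-5.86 ± 0.20), Fosb (-8.05 ± 0.29) and Junb (-3.40 ± 0.16).

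Of 12 genes for factors that bind cytokine mRNAs, 5 were higher and 6 lower in stimulated CD28-/- than in wt cells (23.7% and 27.8% of all genes). Zfp36l1 and Zc3h12d, which promote mRNA decay, were higher by 0.54 ± 0.07 and 0.54 ± 0.08 on the log2 scale. In T1792tg against wt cells 0 were higher and 3 lower (6.1% and 6.45% of all genes). These were Zfp36l1 (-0.44 ± 0.07), Zfp36 (-0.47 ± 0.09) and Zc3h12d (-0.34 ± 0.08), with adjusted p from 4.4e-05 to 0.0021. In T1792del against wt cells 1 of the 12 was called, also lower (8.47% of all genes). In stimulated against naive wt cells 5 of the 12 were higher and 7 lower (41.3% and 43.9% of all genes). Zfp36 averaged 48.9 ± 3.82 CPM in stimulated and 550 ± 43.9 CPM in naive wt libraries.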

How the data were processed

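The deposited table holds raw counts per gene, with Entrez identifiers. Per the submitters' processing notes, the authors worked on mm10 with STAR 2.5.2a, edgeR 3.24.3, FastQC 0.11.5 and R 3.5, from stranded single-end libraries per the labels' protocols. Which program counted reads, and against which genes, is not given in the sources used here. RefSeq (GRCm38.p6) gave symbols for 23968 identifiers, and the other 60 took 0.0749% of counts.

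Genes passing filterByExpr were fitted over all 38 libraries with 1 coefficient per group (TMM scaling, edgeR 4.0.16 quasi-likelihood, R 4.3.3). Each of 21 comparisons was a two-sided contrast, Benjamini-Hochberg adjusted over 13650 genes and called below 0.05. The SE is the log2 fold change over the square root of F. The deposited length column, an other value of the table, gave RPKM. Folds against groups at 0 use 3 pooled counts, and counting intervals are 95% exact, covering counting error only. The fit was tested on simulated data. The cytokine genes were all named by rule, as were list genes (up to 4 smallest p) and the 3 most like genes. The cytokine genes and lists were chosen with earlier results of these data known. P-values measure the spread between mice. Same-numbered naive and stimulated libraries correlated above 0.1 in every pair in wt (0.26 to 0.62) and T1792del (0.41 to 0.57) only, and blocking on them within genotype changed no call of a cytokine gene. Alternatives were RLE scaling, DESeq2 1.42.0, no filter, a mean of at least 5 CPM, compared groups only, replicate blocks, a sex term and each library left out.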

Additional observations from a re-analysis of the deposited data

Results flagged for a closer look

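Single libraries stood apart from the other 3 of their group in 9 of 75 gene and group combinations. Chance gives about 1 in 20 for continuous values. That rate does not apply to the 3 of the 9 that rest on 1 or 2 counts (Il4 and Il13 in naive T1792del and Il13 in naive CD28-/- cells). It need not hold for the others with few counts either. Tnf stood at 31.3 CPM in naive T1792tg replicate 3, against 18 to 18.3 CPM in its sister libraries. Il21 was low in naive T1792tg replicate 1 (1.2 CPM against 2.08 to 2.23 CPM), and high in stimulated T1792del replicate 2 (0.675 against 0.332 to 0.383 CPM) and stimulated wt replicate 3 (1.36 against 0.962 to 0.983 CPM). Il10 was high in naive CD28-/- replicate 2 (0.739 against 0.531 to 0.564 CPM, 16 counts against 11 to 13). Il4 was high in naive T1792tg replicate 1 (0.449 against 0.319 to 0.333 CPM, 9 counts against 8 each) and in naive T1792del replicate 2 (0.0916 against 0.0489 to 0.052 CPM, 2 counts against 1 each). Il13 had a single count in naive CD28-/- replicate 1 (0.0442 CPM) and naive T1792del replicate 2 (0.0458 CPM), and none in their sister libraries.

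The change with stimulation differed between genotypes in 11 tests of the difference itself, on the log2 scale. In CD28-/- against wt cells these were Lif (-0.73), Lta (-0.52), Tnf (-0.57), Il1a (-4.59) and Il21 (-1.16). In T1792del against wt cells it was Lta (-0.94), and in T1792tg against wt cells Lif (1.19) and Lta (0.83). In rescue against CD28-/- cells they were Lta (1.19), Tnf (1.25) and Il21 (2.34). The effect of the transgene at 24 h differed with and without CD28 for Lif (1.46).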

How the results depend on the processing

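Counts of called cytokine genes stayed within 1.5 times of the reported count in 313 of 355 recomputations, and no called gene changed direction under any alternative. A filter at a mean of 5 CPM kept only 5 of the genes, and gave 5 called for 24 h against naive in wt, T1792del, T1792tg and rescue, 4 in CD28-/-, 5 for CD28-/- against wt and T1792tg against T1792del at 24 h, 4 for rescue against CD28-/- and T1792del against wt at 24 h, 1 for naive rescue against CD28-/-, 1 for naive T1792del against wt and 0 for naive T1792tg against wt. With the compared groups alone the counts were 5 for 24 h against naive in CD28-/-, 1 for naive rescue against CD28-/-, 1 for naive T1792del against wt, 0 for naive T1792tg against wt and 2 for the transgene effect with and without CD28 (2 with DESeq2). Naive T1792del against wt gave 1 with no filter and 1 with a sex term, which gave 0 for naive T1792tg against wt. With 1 library left out, counts ran from 4 to 7 for rescue against CD28-/- and for T1792del against wt, and 3 to 5 for T1792tg against wt. They ran from 2 to 5 for naive CD28-/- against wt, where all libraries gave 6, and for its response difference. The range was 2 to 3 for naive rescue against CD28-/-, 1 to 2 for naive T1792del against wt and for the transgene effect, and 0 to 2 for naive T1792tg against wt. Uncalled values changed sign. Il10 in rescue at 24 h against naive gave -0.01 with RLE scaling. With 1 library left out, log2 values ran from -0.51 to 0.36 for Il10 in rescue at 24 h against naive (-0.31 without naive rescue 2), -0.76 to 0.03 for Il10, -1.35 to 0.39 (0.22 and 0.08 also positive) for Il13 and -1.39 to 0.08 for Il4 in rescue against T1792tg, -0.11 to 0.73 for Il10, -0.62 to 1.12 for Il13, -0.30 to 1.17 for Il4 and -0.02 to 0.12 for Lta in rescue against wt, -0.02 to 0.29 for Il21 in T1792tg at 24 h against naive, and -0.21 to 0.11 (0.03 without T1792del replicate 2) for Il3 in T1792del against wt. Beyond calls named above, a replicate block over all groups, whose numbers do not pair genotypes, gave 7 called for CD28-/- against wt and 6 for T1792tg against wt at 24 h. With no filter or DESeq2 the Il13 call in CD28-/- against wt was lost (adjusted p = 0.056 and 0.092). Depth limits Il3, Il13 and Csf2 in naive cells, and Il4 and Il10 in stimulated CD28-/- and T1792del cells, which held 13 counts or fewer per library. It also limits Il1a (1 to 3 counts per library), Il3 (0 to 7) and Il21 (6 to 11) in stimulated CD28-/- cells, and Il3 in stimulated rescue cells (2 to 12). The folds of these genes against those groups rest on such counts. The causes were not tested.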
